A study of Drosophila melanogaster with 12 samples.

Results

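Ribosome biogenesis and nucleolar genes were described across 12 Affymetrix arrays of whole male Drosophila melanogaster larvae. The set held 30 named genes: parts of the snoRNP complexes that modify ribosomal RNA, subunits and factors of RNA polymerase I, structural and regulatory proteins of the nucleolus, GTPases of ribosome assembly, factors of subunit maturation and the growth regulator Myc. Members were found by gene symbol among the probe sets that the platform's gene table pairs with a single gene, after symbols were updated to current ones. This gave 26 members of 11982 genes, read by 27 of 18952 probe sets, since Nop60B had 2. The snoRNP protein nop5, the large subunit export factor Nmd3, the snoRNP protein hoip and Myc had no probe set with 1 gene and were not analysed here. Ns2 fell under the filter on dim genes, so 25 members of 8387 genes entered the tests.

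The larvae were of the wild-type strain Canton-S, and each of the 4 groups held 3 arrays, which the labels call biological replicates. The foods differed in sucrose, at 0.15 M (control) and 1 M (high sugar). Mid-L3 larvae, which were still feeding, had grown up on control food and were moved, early in the last larval instar, to fresh food of either kind for 12 h. Wandering larvae of the same instar, picked high in the vial after they had largely stopped eating a blue-dyed food, had been on control or high sugar food since hatching. The time on high sugar food therefore differed between the stages along with the stage, and these cannot be told apart in any comparison that sets high sugar arrays of the stages side by side.

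Ribosome biogenesis starts in the nucleolus, where RNA polymerase I transcribes the ribosomal RNA precursor. Box C/D and box H/ACA snoRNPs then methylate it and convert uridines to pseudouridine, while helicases, GTPases, scaffold proteins and nucleases trim, fold and pack it into the small and the large subunit. In larvae most tissues grow by enlarging polyploid cells, growth that depends on ribosome supply and is controlled through Myc, TOR and insulin signalling, and it ends when the larva leaves the food.

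Values are intensities per probe set as deposited, and overlap of a gene's arrays is read from these values unless normalization is named. Mid-L3 arrays had a median intensity of 62.2 to 65.0 and wandering arrays one of 79.1 to 82.4, and the number of arrays limits the precision. Changes are differences of log2 (intensity plus 12.7) after quantile normalization, a scale that understates the change of dim genes, and each is given with its standard error (SE). A gene passed a comparison where limma's p-value, adjusted by Benjamini-Hochberg over the 8387 genes, was under 0.05. Levels of different genes come from different probes and were not set against each other.

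Mid-L3 control array 2 stood apart for these genes. On it, 25 of 25 tested members lay above the other 2 arrays of its group, by a median log2 difference of 0.42, while over all genes tested 40.6% were highest there and the median difference was 0.01. The displacement was shared by 55 of 69 other ribosome assembly genes (79.7%, median 0.28) and 20 of 24 translation factors, against 13 of 33 cytosolic ribosomal protein genes (39.4%, median 0.01) and 6 of 11 markers of proliferating cells. The median SD of the members among arrays of this group was 0.28 on the log2 scale, against 0.11 for all genes. In the other groups the members' median SD was 0.10 to 0.16, and that of all genes 0.10 to 0.17. For the comparisons that use this array, values with it left out stand beside the results of members or in a sentence that groups them. For the other lists they are limited to counts and medians of the ribosome assembly genes.

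**Figure D1:**
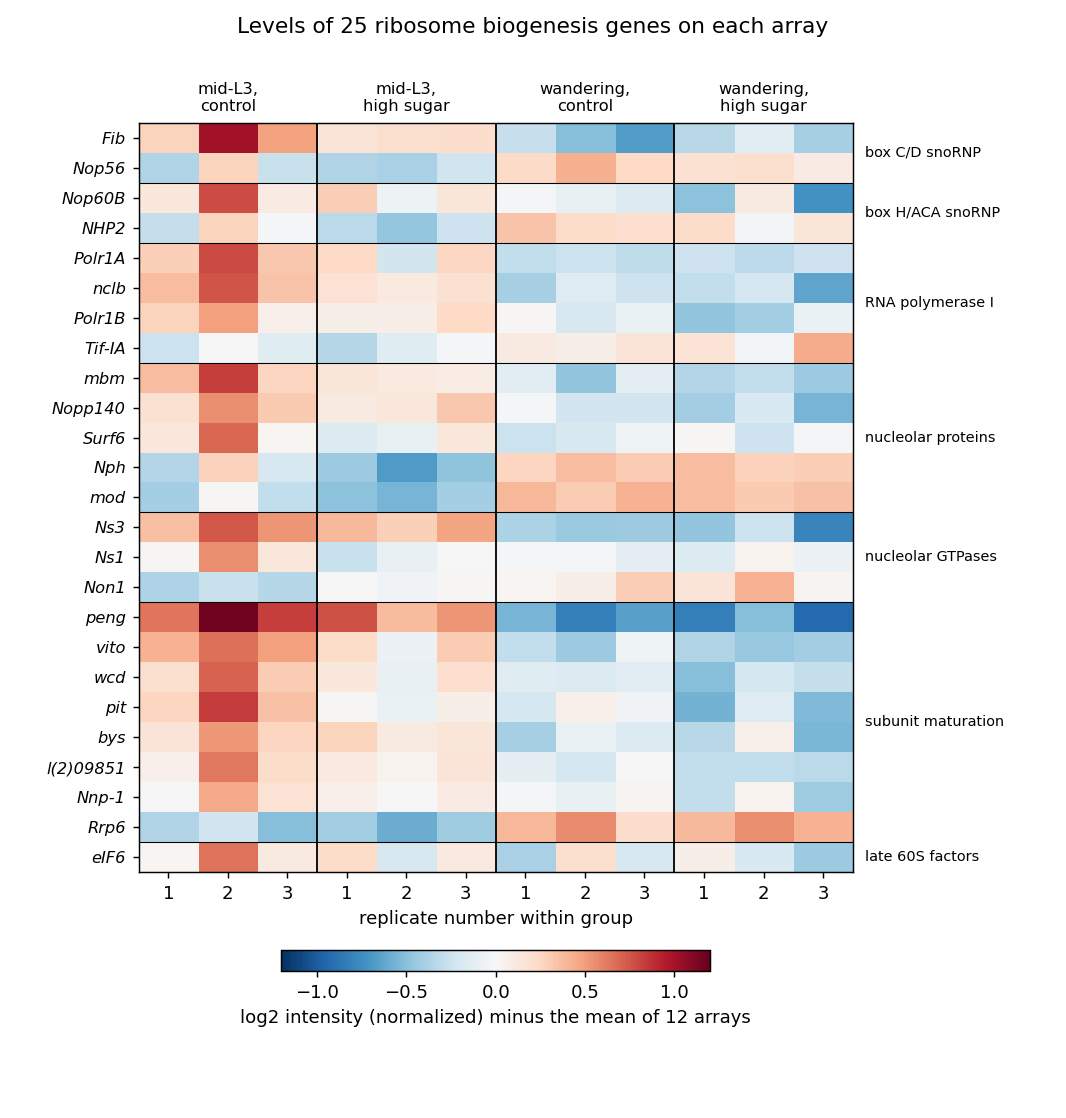
Normalized log2 intensity of each of 25 members on each of 12 arrays (columns, by group and replicate number), minus the member's mean over the 12 arrays; members are grouped by role. Mid-L3 control array 2 is the highest of its group for 25 of 25 members; Rrp6 is low on every mid-L3 array, Nph and mod are low on the mid-L3 arrays other than that one, and peng, Ns3 and Fib are low in wandering larvae.

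The comparison of wandering with mid-L3 larvae addressed how the genes differed between feeding and the end of feeding. On control food 14 members fell and 5 rose, and on high sugar food 14 fell and 6 rose. The largest falls on control food were those of peng, Ns3, Fib and vito, and the rises on both foods were those of Rrp6, mod, Nph and Nop56. Of the 25 members, 76% passed on control food and 80% on high sugar food. Those shares lie near the background, since 79.2% of all genes tested passed on control food (39.4% higher, 39.8% lower) and 79.1% on high sugar food (38.2% higher, 40.9% lower). After normalization the stages did not overlap for 20 of 25 members on control food, 16 lower and 4 higher (83% of all genes, 41.6% lower and 41.4% higher), and for 19 on high sugar food, 13 lower and 6 higher (80.6% of all genes, 41.6% lower and 39% higher). The median change of the members was -0.43 on control food (all genes -0.01) and -0.41 on high sugar food (all genes -0.05). In whole larvae, fewer cells of a type and less RNA per cell cannot be told apart.

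The scaling of the arrays decided part of these counts. In the values as deposited the median of all genes shifted by 0.18 and 0.17 between the stages, on control and on high sugar food, and with arrays centred on their medians by -0.12 and -0.11. Relative to the median of all genes, the members' median on control food was -0.42 after quantile normalization and -0.40 in the values as deposited. The high sugar values were -0.36 and -0.25. Centring shifts all genes of an array by the same amount, so relative to that median it gives the deposited result again by construction. On control food 8 members passed as lower and 4 as higher in the values as deposited (32.8% and 45.9% of all genes), and 18 and 1 with centred arrays (43.7% and 35.7%). On high sugar food the values as deposited gave 3 lower (peng, Ns3 and Nopp140) and 7 higher, where 32% and 45.6% of all genes passed. With centred arrays 15 passed as lower and 3 as higher (Rrp6, Nph and mod), against 43.1% and 35.8% of all genes. On control food the calls of Fib, mbm, nclb, Nopp140, Ns3, peng, Polr1A, Rrp6 and vito held in every alternative in which the gene was tested, and on high sugar food those of mod, Nopp140, Nph, Ns3, peng and Rrp6. Without mid-L3 control array 2 the control food comparison gave 12 lower and 6 higher, with a median of -0.24, and 6410 of 8387 genes passed in that fit.

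Box C/D snoRNPs place methyl groups on the ribosomal RNA: Fib (fibrillarin) is the methyltransferase and Nop56 a core scaffold protein. Fib read 435, 751 and 505 on mid-L3 control arrays 1 to 3, 374, 398 and 404 on mid-L3 high sugar arrays, 334, 295 and 253 on wandering control arrays and 334, 373 and 333 on wandering high sugar arrays. The wandering arrays lay below the mid-L3 arrays on each food, on high sugar food by a narrow margin. Fib fell by 1.07 on control food (SE 0.16, adjusted p = 5.01e-05), a 2.10-fold difference, and by 0.86 when array 2 of the mid-L3 control group was left out (adjusted p = 8.62e-05). On high sugar food it fell by 0.47 (SE 0.16, adjusted p = 0.0182), but the call was lost in the values as deposited (-0.17, adjusted p = 0.35) and without wandering high sugar array 3 (adjusted p = 0.0579).

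Nop56 moved the other way. It read 1035, 1638 and 1114 on mid-L3 control arrays, 945, 978 and 1077 on mid-L3 high sugar arrays, 1609, 1811 and 1467 on wandering control arrays and 1431, 1401 and 1484 on wandering high sugar arrays. Mid-L3 control array 2 lay within the range of the wandering control arrays, and the groups on high sugar food did not overlap. Nop56 rose by 0.42 on control food (SE 0.14, adjusted p = 0.0133), and by 0.61 (adjusted p = 8.25e-05) when that array was left out. That call ended when mid-L3 control array 1, mid-L3 control array 3 or wandering control array 2 was left out (adjusted p = 0.069, 0.0592 and 0.0547). Its rise on high sugar food was 0.49 (adjusted p = 0.00535). With centred arrays Nop56 did not pass on either food (0.09, adjusted p = 0.575, and 0.24, adjusted p = 0.147).

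The ratio of Nop56 to Fib within an array does not change when all values of the array are multiplied by the same factor. A difference between arrays that depends on intensity can still move the ratio. Its size depends on the probes, so only its change across arrays can be read. The pair was chosen after its values were seen, so the ratio carries no test. As deposited it was 2.38, 2.18 and 2.21 on mid-L3 control arrays and 2.53, 2.46 and 2.66 on mid-L3 high sugar arrays. It was 4.82, 6.14 and 5.81 on wandering control arrays and 4.28, 3.76 and 4.46 on wandering high sugar arrays. Each wandering array lay above each mid-L3 array, mid-L3 control array 2 included, and the wandering control arrays lay above the wandering high sugar arrays.

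Box H/ACA snoRNPs make pseudouridine, with Nop60B (dyskerin) as the enzyme and NHP2 as an RNA-binding partner. Nop60B was -0.43 on control food (SE 0.21, adjusted p = 0.0838), and it fell by 0.50 on high sugar food (adjusted p = 0.0471). The high sugar call was lost when wandering array 1 or 3 or mid-L3 array 1 or 3 of that food was left out (adjusted p 0.0932 to 0.198), with a change of -0.32 without wandering high sugar array 3, and in the values as deposited (-0.28, adjusted p = 0.22). Its other probe set, fitted singly, gave -0.45 on control food (adjusted p = 0.019) and -0.26 on high sugar food (adjusted p = 0.155), so the probe sets differed in which food passed. NHP2 was 0.27 on control food (adjusted p = 0.0677), passed there with mid-L3 control array 2 left out (0.41, adjusted p = 0.00674), and rose by 0.45 on high sugar food (adjusted p = 0.00553). With centred arrays NHP2 was -0.01 on control food and did not pass on high sugar food (0.27, adjusted p = 0.0853). The ratio of NHP2 to Nop60B was 1.19 to 1.66 on mid-L3 control, 1.11 to 1.31 on mid-L3 high sugar and 2.05 to 2.16 on wandering control arrays. Wandering high sugar array 2, at 1.47, lay within the range of the mid-L3 control arrays, while the other 2 arrays of its group were at 2.54 and 2.95. The ratio used the brighter probe set of Nop60B alone, which read 467, 672 and 421 on wandering high sugar arrays 1 to 3. The other probe set read 137, 138 and 144 on these arrays, so the overlap of the ratio belongs to the brighter probe set.

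**Figure D2:**
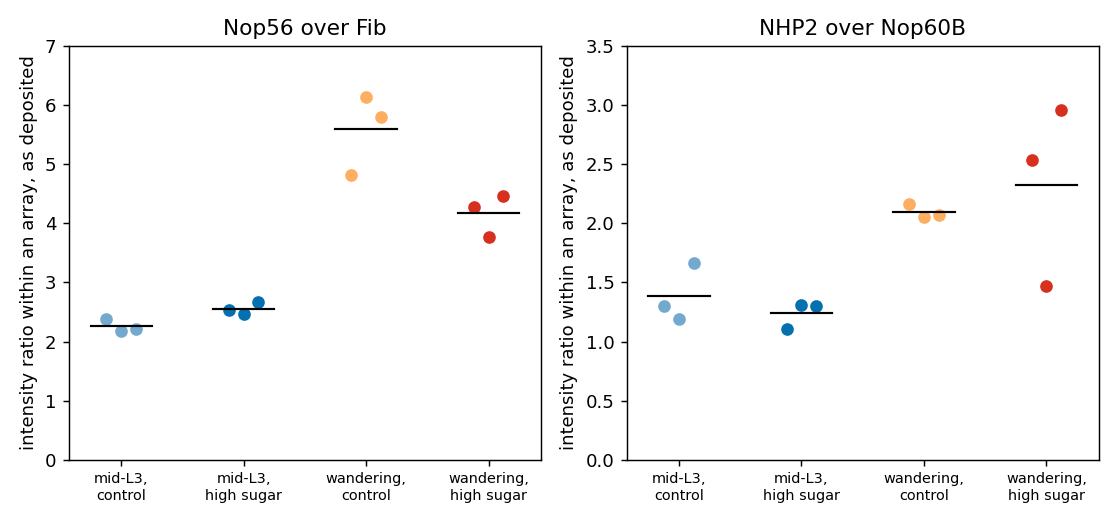
Ratio of intensities as deposited within each array (points; lines are group means) for Nop56 over Fib (left) and NHP2 over Nop60B (right), in the 4 groups of 3 arrays. Nop56 over Fib is 2.18 to 2.66 in mid-L3 and 3.76 to 6.14 in wandering larvae. The NHP2 ratio, taken with the brighter probe set of Nop60B alone, overlaps between the stages through 1 wandering high sugar array at 1.47.

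RNA polymerase I is built around its largest subunits, Polr1A and Polr1B. Polr1A read 222, 309.9 and 228 on mid-L3 control arrays, 202, 149.7 and 213 on mid-L3 high sugar arrays, 175, 181 and 171 on wandering control arrays and 185, 174 and 188 on wandering high sugar arrays. On control food the stages did not overlap, and on high sugar food the lowest mid-L3 array lay below every wandering array. After normalization Polr1A did not overlap between the stages on either food. Polr1A fell by 0.76 on control food (SE 0.15, adjusted p = 3.77e-04). It fell by 0.36 on high sugar food (adjusted p = 0.0394), but leaving out any wandering high sugar array, or mid-L3 high sugar array 1 or 3, ended that call (adjusted p 0.0646 to 0.143), and in the values as deposited the change was -0.03.

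Polr1B fell by 0.36 on control food (adjusted p = 0.0247) and by 0.44 on high sugar food (adjusted p = 0.00806). On control food Polr1B no longer passed when mid-L3 control array 1 or 2 or wandering control array 2 or 3 was left out (adjusted p 0.0512 to 0.116), and in the values as deposited it passed on neither food. The nucleolar protein nclb, the fly counterpart of PWP1, which binds ribosomal DNA, fell by 0.75 on control food (adjusted p = 2.08e-04) and by 0.53 on high sugar food (adjusted p = 0.00293). The high sugar call of nclb was lost in the values as deposited (-0.21, adjusted p = 0.152).

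Tif-IA, the initiation factor that recruits RNA polymerase I and is a target of TOR signalling, did not follow the subunits. It read 877, 1074 and 951 on mid-L3 control arrays, 756, 917 and 996 on mid-L3 high sugar arrays, 1187, 1174 and 1142 on wandering control arrays and 1155, 1001 and 1501 on wandering high sugar arrays. As deposited, each wandering array lay above each mid-L3 array of the same food, on high sugar food by a narrow margin. After normalization the stages overlapped on high sugar food. The change was 0.24 on control food (SE 0.12, adjusted p = 0.0876). On high sugar food Tif-IA rose by 0.36 (adjusted p = 0.0166), a call lost with centred arrays (0.16, adjusted p = 0.316), without wandering high sugar array 3 (adjusted p = 0.079) and without mid-L3 high sugar array 1 (adjusted p = 0.0779).

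Among the structural and histone-binding proteins of the nucleolus, mod and Nph were higher in wandering larvae, and mbm and Nopp140 lower. The nucleolin-like protein mod read 1594, 2203 and 1735 on mid-L3 control arrays, 1394, 1409 and 1555 on mid-L3 high sugar arrays, 2638, 2505 and 2439 on wandering control arrays and 2423, 2332 and 2571 on wandering high sugar arrays. The stages did not overlap on either food, and mid-L3 control array 2 came closest to the wandering arrays. The rise of mod was 0.60 on control food (SE 0.10, adjusted p = 8.62e-05) and 0.83 on high sugar food (adjusted p = 4.87e-06), and with centred arrays 0.17 (adjusted p = 0.172) and 0.46 (adjusted p = 0.00152).

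Nph, a nucleophosmin-like histone chaperone, read 1659.6, 2643 and 1863 on mid-L3 control arrays, 1453, 1274 and 1479 on mid-L3 high sugar arrays, 2404, 2617 and 2238 on wandering control arrays and 2420.1, 2285 and 2466 on wandering high sugar arrays. Mid-L3 control array 2 lay above every wandering array as deposited, and within the range of the wandering control arrays after normalization. The high sugar groups were well apart. Nph rose by 0.40 on control food (SE 0.13, adjusted p = 0.0138), or by 0.58 with that array left out (adjusted p = 1.23e-04), but with centred arrays the value turned to -0.04 (adjusted p = 0.813). It also missed the threshold when mid-L3 control array 1 or 3 was left out (adjusted p = 0.0736 and 0.0542) and in the values as deposited (0.26, adjusted p = 0.104). On high sugar food Nph rose by 0.85 (adjusted p = 5.77e-05), a 1.80-fold difference.

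Nopp140, a phosphoprotein that escorts snoRNPs, read 567, 734 and 612 on mid-L3 control arrays, 492, 535 and 613 on mid-L3 high sugar arrays, 534, 489 and 461 on wandering control arrays and 424, 479 and 404 on wandering high sugar arrays. The wandering arrays lay below the mid-L3 arrays on each food. It fell by 0.51 on control food (SE 0.13, adjusted p = 0.00233) and by 0.57 on high sugar food (adjusted p = 0.00104). The nucleolar protein mbm, which larval neural stem cells need for growth, fell by 0.72 (adjusted p = 4.60e-04) and 0.48 (adjusted p = 0.00835). On high sugar food mbm did not pass in the values as deposited (-0.13, adjusted p = 0.382). The nucleolar protein Surf6 read 172, 252 and 156 on mid-L3 control arrays and 130.3, 142 and 171 on mid-L3 high sugar arrays. It read 157, 168 and 179.8 on wandering control arrays and 194, 158 and 195 on wandering high sugar arrays. In these values Surf6 overlapped between the stages on both foods, and after normalization on high sugar food alone. It fell by 0.45 on control food (adjusted p = 0.0202), which did not pass when mid-L3 control array 2 (-0.24, adjusted p = 0.101) or wandering control array 1 (adjusted p = 0.0624) was left out, and was -0.05 on high sugar food (adjusted p = 0.798).

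The 4 GTPases of the set, which act on pre-ribosomal particles, did not share a direction. Ns3 read 135, 174 and 150.2 on mid-L3 control arrays, 129.6, 122 and 142 on mid-L3 high sugar arrays, 93.7, 89.1 and 87.1 on wandering control arrays and 86.9, 103 and 67.1 on wandering high sugar arrays, with no overlap of the stages. It fell by 0.97 on control food (SE 0.14, adjusted p = 3.10e-05) and by 0.89 on high sugar food (adjusted p = 6.82e-05). Non1 read 2442, 2635 and 2487 on mid-L3 control arrays, 3049.9, 3074 and 3243 on mid-L3 high sugar arrays, 2868, 3006 and 3052 on wandering control arrays and 3020.3, 3556 and 2939 on wandering high sugar arrays.

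The mid-L3 control arrays of Non1 lay below all 9 others. Non1 rose by 0.46 on control food (SE 0.10, adjusted p = 8.33e-04) and was 0.21 on high sugar food (adjusted p = 0.0666), but with centred arrays these values turned to -0.06 (adjusted p = 0.524) and -0.26 (adjusted p = 0.0116). Ns1 (nucleostemin) read 434, 641 and 466 on mid-L3 control arrays, 329.9, 389 and 420.5 on mid-L3 high sugar arrays, 474, 501 and 444 on wandering control arrays and 443, 494 and 498 on wandering high sugar arrays. In these deposited values its stages overlapped on control food and not on high sugar food, while after normalization the reverse held. The change of Ns1 was -0.29 on control food (SE 0.13, adjusted p = 0.0633) and 0.05 on high sugar food (adjusted p = 0.732). Ns2 read 33.7, 48.6 and 50.7 on mid-L3 control arrays, between 48.8 and 50.1 on mid-L3 high sugar arrays, 71.0, 74.8 and 71.3 on wandering control arrays and 87.7, 68.9 and 86.2 on wandering high sugar arrays. Every wandering array of Ns2 lay above every mid-L3 array. With no filter on dim genes it was tested among 11982 genes and rose by 0.38 on control food (adjusted p = 0.0319) and by 0.37 on high sugar food (adjusted p = 0.0349).

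Subunit maturation held both the steepest fall and the steepest rise among the members. The gene peng, the fly counterpart of a PUF-family factor of large subunit assembly in yeast, read 284, 407 and 320.5 on mid-L3 control arrays, 289, 231 and 255 on mid-L3 high sugar arrays, 142, 118 and 129 on wandering control arrays and 118, 148 and 110.4 on wandering high sugar arrays. The lowest mid-L3 array lay well above the highest wandering array. It fell by 1.56 on control food (SE 0.15, adjusted p = 7.74e-07), a 2.94-fold difference, and by 1.31 on high sugar food (SE 0.15, adjusted p = 4.36e-06), a 2.48-fold difference. Over all alternatives its change was -1.74 to -1.26 on control food and -1.43 to -0.97 on high sugar food.

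Rrp6, the nuclease of the nuclear exosome that trims ribosomal RNA precursors, read 169, 181 and 150.3 on mid-L3 control arrays, 155, 138 and 159 on mid-L3 high sugar arrays, 348, 415 and 303 on wandering control arrays and 359, 392 and 382 on wandering high sugar arrays. Mid-L3 and wandering arrays did not overlap, and Rrp6 on mid-L3 control array 2 was also the highest of its group. It rose by 0.76 on control food (SE 0.11, adjusted p = 4.01e-05) and by 0.93 on high sugar food (SE 0.11, adjusted p = 6.44e-06). The rise was 0.63 to 1.03 and 0.77 to 1.26 over all alternatives.

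The gene vito, the fly counterpart of the nucleolar protein NOL12, read 222, 257 and 235 on mid-L3 control arrays, 182, 153 and 203 on mid-L3 high sugar arrays, 159.6, 148 and 187 on wandering control arrays and 155, 143 and 151 on wandering high sugar arrays. On control food the stages did not overlap, and on high sugar food the lowest mid-L3 array lay just below the highest wandering array. After normalization vito did not overlap between the stages on either food. It fell by 0.78 on control food (SE 0.13, adjusted p = 7.28e-05) and by 0.56 on high sugar food (adjusted p = 0.0011), the latter lost in the values as deposited (adjusted p = 0.0871).

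Smaller falls on both foods were those of wcd, a part of the small subunit processome, the DEAD-box helicase pit, the small subunit factor bys and a lethal locus that encodes a WD-repeat protein. They fell by 0.41 to 0.55 on control food (adjusted p 0.00262 to 0.0101) and by 0.41 to 0.44 on high sugar food (adjusted p 0.00958 to 0.0253). None of these passed in the values as deposited on either food. On high sugar food pit lost its call when any of 4 arrays was left out (adjusted p 0.0578 to 0.0914), bys with any of 3 (0.0508 to 0.0807) and wcd with either of 2 (0.0599 and 0.0673). Nnp-1, the counterpart of a yeast large subunit processing factor, was -0.24 on control food (adjusted p = 0.117) and -0.28 on high sugar food (adjusted p = 0.0707).

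The late large subunit factor eIF6 keeps the subunits apart until the large one is mature. It read 367, 579 and 382 on mid-L3 control arrays, 399, 307 and 383 on mid-L3 high sugar arrays, 314, 498 and 359 on wandering control arrays and 448, 368 and 328 on wandering high sugar arrays. The groups overlapped on both foods, with replicate 2 the highest of each control group. The change was -0.39 on control food (SE 0.20, adjusted p = 0.0856) and -0.23 on high sugar food (adjusted p = 0.296).

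With mid-L3 control array 2 left out, the falls on control food were 1.41 for peng, 0.87 for Ns3, 0.72 for vito, 0.62 for nclb, 0.60 for Polr1A, 0.55 for mbm and 0.41 for Nopp140, each still passing (adjusted p 4.67e-06 to 0.0134). Those of bys, wcd and pit were 0.42, 0.39 and 0.37 (adjusted p 0.0122 to 0.034), and that of the WD-repeat gene was 0.24 (adjusted p = 0.0442). The rises of Rrp6, mod and Non1 were 0.83, 0.72 and 0.48 (adjusted p 4.85e-06 to 0.00188). Nop60B and eIF6 were at -0.20 each (adjusted p = 0.374 and 0.362), Ns1 at -0.12 and Nnp-1 at -0.11 (adjusted p = 0.321 and 0.442), and Tif-IA at 0.31 (adjusted p = 0.0553).

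Control arrays with the same replicate number at both stages were also treated as paired, although the labels do not say what a number stands for. With the number as a block over all 12 arrays 20 of 25 members passed on control food, where Ns1 was added (adjusted p = 0.0476). In that fit 6561 of 8387 genes passed. The 6 control arrays alone gave 20 without the block, with Tif-IA added (0.25, adjusted p = 0.0322), and 22 with it. Of all genes 6715 and 6717 passed in those fits. The block on those 6 arrays added Nop60B (-0.44, adjusted p = 0.0528 without and 0.0405 with it) and eIF6 (-0.40, adjusted p = 0.0997 without and 0.00662 with it), and Tif-IA stayed past the threshold (adjusted p = 0.0482).

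**Figure D3:**
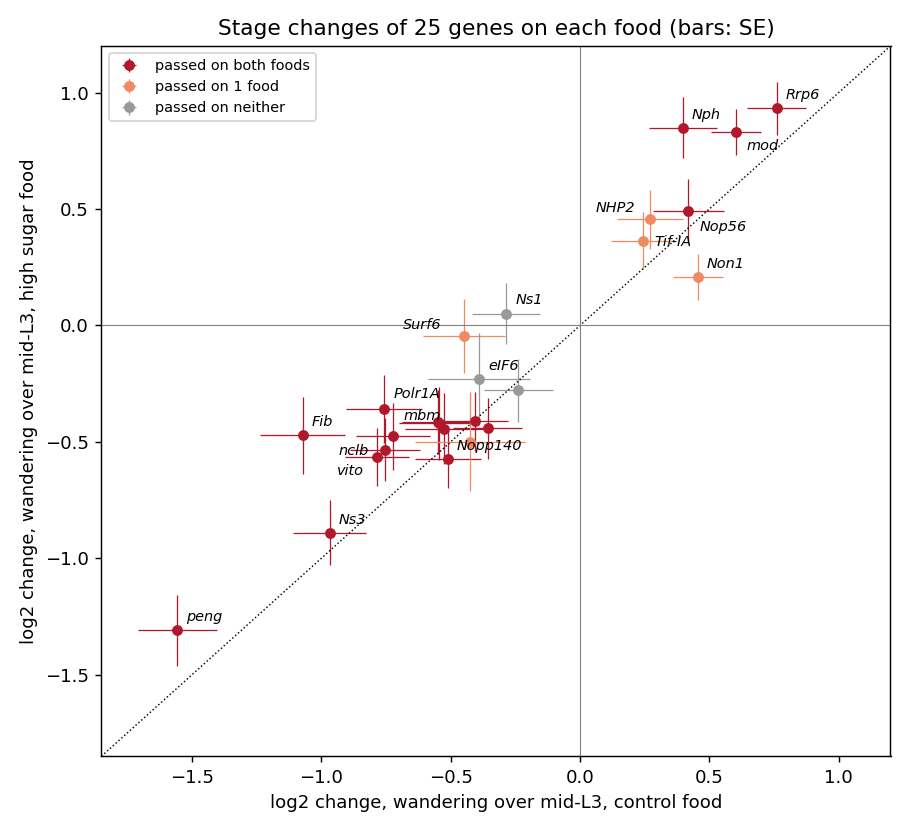
Log2 change from mid-L3 to wandering larvae on control food (x axis) and on high sugar food (y axis) for 25 members; bars are SE from limma, the dotted line marks equal changes and colours show on how many foods the gene passed. The points of Rrp6, mod, Nph and Nop56 lie at the upper right and that of peng at the lower left, and 17 of 25 members passed on both foods.

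The stage changes on the foods, which share no arrays, were alike in sign among the members that passed. Of 25 members 17 passed on both foods, 4 higher and 13 lower, and none passed in opposite directions. Another 2 passed on control food alone (Non1 and Surf6), 3 on high sugar food alone (Nop60B, NHP2 and Tif-IA) and 3 on neither (Ns1, Nnp-1 and eIF6). Among all genes 70.9% passed on both foods, against 68% of the members. Across the 25 genes Pearson's r was 0.94 and Spearman's rho 0.86, and across all 8387 genes they were 0.95 and 0.94. These are descriptions across genes, which are not independent replicates and share the arrays of each group and the scaling between them.

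Among the other genes of the pathway falls outnumbered rises between the stages. Those called ribosome assembly genes here also include genes of RNA modification and of polymerase III, with Maf1 among them. Of 69 tested genes of ribosome assembly outside the set, 41 fell and 7 rose on control food, with a median of -0.39, and 37 fell and 8 rose on high sugar food, with a median of -0.39. In the values as deposited these counts were 25 lower and 11 higher, and 28 lower and 23 higher. With mid-L3 control array 2 left out, the control food counts were 32 lower and 11 higher, with a median of -0.30. Among small subunit factors 14 of 19 fell on control food, CG2260 the most (-2.65, adjusted p = 7.59e-08), and among large subunit factors 10 of 20, including Nle (-1.05, adjusted p = 9.38e-06). In the exosome 5 of 9 fell on control food, such as the core subunit Rrp4 (-1.06, adjusted p = 1.16e-05), while Ski6 rose by 0.41 (adjusted p = 0.00166). Of 13 polymerase I and III genes 7 fell, among them Polr3D (-1.38, adjusted p = 6.55e-07), and Maf1, a repressor of polymerase III, rose by 0.95 (adjusted p = 1.42e-06). Of 8 other snoRNP and RNA modification genes 5 fell, with the RNA methyltransferase Nsun2 at -2.34 (adjusted p = 1.36e-07).

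Cytosolic ribosomal protein genes encode the proteins that the biogenesis factors assemble with the ribosomal RNA, and their direction turned with the scaling. Of 33 tested, 20 rose and 1 fell on control food and 24 rose and 1 fell on high sugar food, with medians of 0.12 and 0.13, but in the values as deposited 6 rose and 3 fell and 5 rose and 2 fell, and with centred arrays 2 rose and 30 fell on each food. Relative to the median of all genes, their median on control food was 0.13 after quantile normalization and -0.17 in the values as deposited. The members were at -0.42 and -0.40. Centred arrays give the deposited result again by construction. RpL10Aa differed from the rest, with a rise of 3.29 on control food (adjusted p = 1.03e-08). Of 24 translation factors 13 rose and 3 fell on control food, and 2 rose and 16 fell with centred arrays. Of 17 growth regulators 7 rose and 4 fell on control food, among them REPTOR-BP (2.61, adjusted p = 4.86e-09), a transcription factor that TOR represses, and gig (-1.15, adjusted p = 7.82e-07) and Tsc1 (-1.05, adjusted p = 3.29e-05), which together inhibit TOR.

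Tissue markers also differed between the stages on control food, and within several lists single genes went opposite ways. Salivary gland markers (9 of 9 genes with a probe set) had a summed intensity of 6118 to 7864 in mid-L3 and 53532 to 55544 in wandering larvae, but 6 rose and 3 fell. Gut markers (8 of 8) summed to 33992 to 35508 and 22249.8 to 28189, with 6 lower and 2 higher. Markers of proliferating cells (11 of 16) summed to 3779 to 4131 and 4546 to 4824, yet 6 fell and 3 rose, and their median change was -0.28. Imaginal disc markers (7 of 8) summed to 783 to 944 and 1372 to 1581, with 4 higher and 2 lower. Testis markers (9 of 9) summed to 884 to 944 and 4137 to 4504, with 5 of 7 tested higher and 1 lower. Muscle markers (2 of 6) summed to 7709 to 8037 and 636 to 1337, and both fell. Fat body markers (3 of 6) summed to 18356 to 21578 and 28722 to 32188, with 2 higher, and neuron markers (6 of 7) to 834 to 918 and 1432 to 1461, with both tested genes higher. None of the 4 group means of a marker was 0, and the lowest was that of Sgs1, at 5.95 in mid-L3 control larvae. Their part in the members' stage changes was not tested.

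In mid-L3 larvae the comparison asked what 12 h of high sugar food did to these genes. Nph fell and Non1 rose, and no other member passed. Of the 25 members 24 lay below 0, with a median of -0.26, against 47.9% of all genes below 0 and a median of 0.01. The 2 members that passed compare with a background of 14% of genes (7.52% higher, 6.52% lower). The mid-L3 control arrays enter this comparison and the stage comparison on control food, so the values of these comparisons are not independent. When mid-L3 control array 2 was left out, the members' median was -0.12, 22 lay below 0 and 0 passed by limma. When array 1 of that group was left out 5 passed, all lower (Fib, Nph, pit, NHP2 and mod), against 850 of 8387 genes. With any other single array left out 0 passed, against 713 to 1010 genes. With all arrays 12 members had an unadjusted p under 0.05.

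The values of Nph given above, 1659.6, 2643 and 1863 on control food and 1453, 1274 and 1479 on high sugar food, did not overlap. Its fall was 0.45 (SE 0.13, adjusted p = 0.0394), and with mid-L3 control array 2 left out the change was -0.26 (adjusted p = 0.097). With a replicate block over all 12 arrays neither Nph nor Non1 passed (adjusted p = 0.0608 and 0.0689). The call of Nph also ended when mid-L3 control array 3 was left out, or any of the 3 mid-L3 high sugar arrays (adjusted p 0.0622 to 0.14). Non1 lay at 2442 to 2635 on control food and at 3049.9 to 3243 on high sugar food, again with no overlap. It rose by 0.32 (SE 0.10, adjusted p = 0.0471), and leaving out any of the 6 arrays gave 0.29 to 0.35 with adjusted p of 0.0658 to 0.131.

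The next smallest adjusted p-values belonged to pit, vito, Ns1 and mod. Pit read 206, 306 and 219 on control food and 163, 159 and 178 on high sugar food, a change of -0.48 (SE 0.16, adjusted p = 0.0612), which passed with the replicate block over all 12 arrays (adjusted p = 0.0405). Vito was -0.37 (adjusted p = 0.0702), from 222, 257 and 235 to 182, 153 and 203. For both genes each high sugar array lay below each control array, and both passed as lower in the values as deposited (adjusted p = 0.0406 and 0.0442). Ns1 read 434, 641 and 466 on control food and 329.9, 389 and 420.5 on high sugar food, a change of -0.35 (adjusted p = 0.102). The lowest control array of Ns1 lay just above the highest high sugar array. The change of mod was -0.26 (adjusted p = 0.107). With mid-L3 control array 2 left out, pit and vito were at -0.30 each (adjusted p = 0.203 and 0.199), Ns1 at -0.19 (adjusted p = 0.338) and mod at -0.13 (adjusted p = 0.352).

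By role, box C/D genes were at -0.40 (Fib, adjusted p = 0.128) and -0.21 (Nop56, adjusted p = 0.351). Polr1A was at -0.38 (adjusted p = 0.109) and Tif-IA at -0.04 (adjusted p = 0.884). The change of eIF6 was -0.21 (adjusted p = 0.54), and those of the 8 subunit maturation genes ranged from -0.48 to -0.11. With mid-L3 control array 2 left out, Fib was at -0.19 (adjusted p = 0.42), Polr1A at -0.22 (adjusted p = 0.358), Nop56 and eIF6 at -0.02 each (adjusted p = 0.943 and 0.972) and Tif-IA at 0.03 (adjusted p = 0.925). After normalization the diets did not overlap for 9 of 25 members (36%), 8 lower and 1 higher, and for 39.5% of all genes (17.9% lower, 21.5% higher). Scaling moved the count that passed: 3 lower and 1 higher in the values as deposited (7.63% and 6.83% of all genes), and 6 lower and 1 higher with centred arrays (9.24% and 5.89%).

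**Figure D4:**
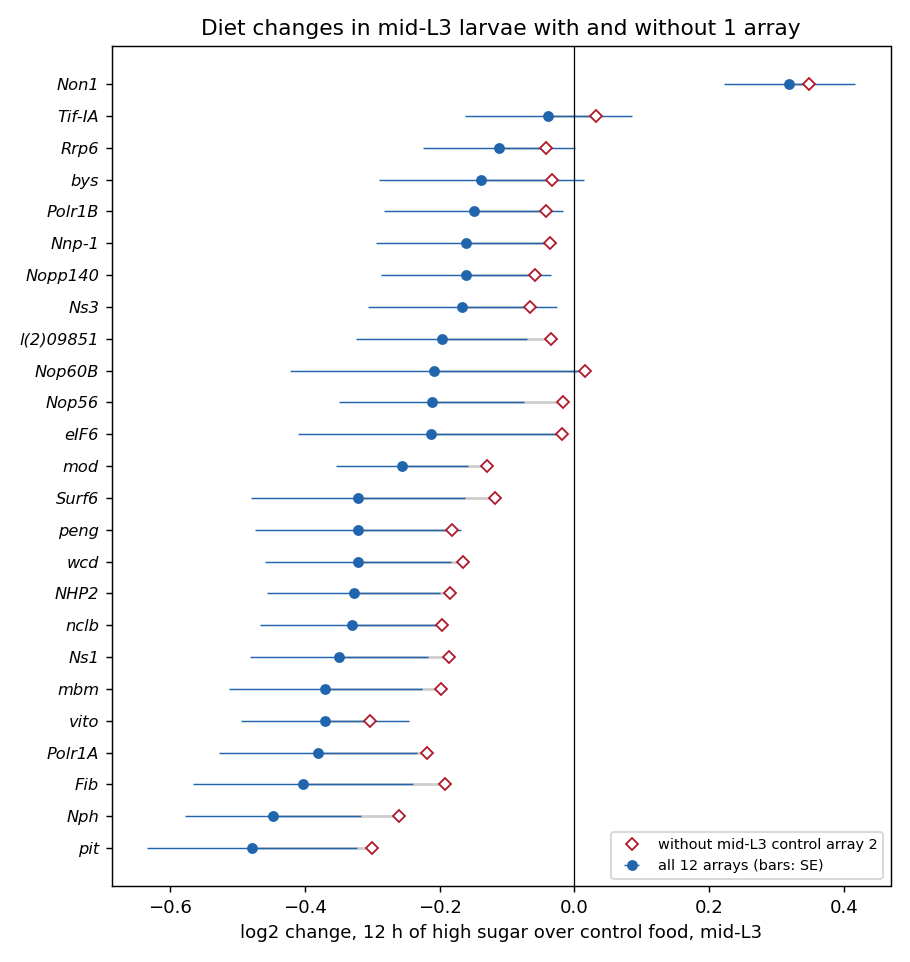
Log2 change of 25 members in mid-L3 larvae after 12 h on high sugar against control food, from all 12 arrays (filled points, bars are SE from limma) and without mid-L3 control array 2 (open diamonds). With all arrays 24 of 25 members lie below 0, and without that array the median moves from -0.26 to -0.12.

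Of the 69 other ribosome assembly genes tested 2 passed and 54 lay below 0, with a median of -0.16 (-0.07 without mid-L3 control array 2). Polr1E, a subunit of polymerase I, fell by 0.41 (adjusted p = 0.0394), and Nop17l, a snoRNP assembly factor, rose by 0.49 (adjusted p = 0.00407). With mid-L3 control array 2 left out, 0 of these 69 genes passed as lower by limma, so the call of Polr1E was lost. The same held without mid-L3 control array 3 and without mid-L3 high sugar array 1 or 2. Of 33 ribosomal protein genes 0 passed by limma, and 0 had an unadjusted p under 0.05, with a median of -0.01. Among translation factors 2 of 24 fell, eEF1delta by 0.34 (adjusted p = 0.0104) and eIF5 by 0.35 (adjusted p = 0.0129). Mid-L3 control array 2 was the highest of its group for 20 of the 24, and values of these 2 genes without it are not given. Of 17 growth regulators 4 rose, including REPTOR-BP (0.76, adjusted p = 0.00505) and REPTOR (0.70, adjusted p = 0.00554), the paired transcription factors that TOR represses. The summed intensity of salivary gland markers was 6118 to 7864 on control and 15432 to 17474 on high sugar food, and that of gut markers 33992 to 35508 and 44676 to 49816. Markers of proliferating cells were at 3779 to 4131 on control and 3448 to 3658.5 on high sugar food, and fat body markers at 18356 to 21578 and 12655 to 18405. Imaginal disc markers were at 783 to 944 and 975 to 1093, and testis markers at 884 to 944 and 1077 to 1193. The sums of muscle and neuron markers overlapped between the diets. Of tested markers, 2 of 9 salivary gland, 4 of 8 gut and 1 of 7 imaginal disc genes passed as higher, and 1 of 3 fat body genes as lower. In the lists of proliferating cells, testis, muscle and neurons 0 passed by limma. The part of these markers in the diet changes was not tested.

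In wandering larvae raised on high sugar food since hatching, 0 of 25 members passed by limma, against a background of 6.37% of genes (3.57% higher, 2.8% lower). With an unadjusted p under 0.05 there was 1 member, pit. Changes ranged from -0.35 to 0.20, 18 members lay below 0 (53.1% of all genes), and the median was -0.09 (all genes -0.02). The number below 0 was 14 without wandering high sugar array 3 and 20 without wandering control array 3. Pit read 176, 216 and 197 on control food and 139, 185 and 143 on high sugar food, so the highest high sugar array lay above the lowest control array. Its change was -0.35 (SE 0.16, adjusted p = 0.203).

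The next members in order of adjusted p were Polr1B, Nopp140, the WD-repeat gene, Nnp-1 and wcd, with changes of -0.23 to -0.19 (adjusted p 0.322 to 0.46). Polr1B read 192, 169 and 177 on control food and 137, 143 and 187 on high sugar food. Nnp-1 read 681, 662 and 679.9 on control food and 562, 683 and 554 on high sugar food. In both genes 1 high sugar array reached the control range and the other 2 lay below it.

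The WD-repeat gene read 436, 431 and 467 on control food and 396, 389.6 and 410.1 on high sugar food, without overlap. Wcd read 153, 155 and 151 on control food and 118, 147 and 141 on high sugar food, also without overlap. After normalization the diets did not overlap for 3 of 25 members (12%), these and Nop56, all lower, against 21.5% of all genes (9.72% lower). Fib was at 0.20 (adjusted p = 0.515), Polr1A at 0.02 (adjusted p = 0.96), Tif-IA at 0.08 (adjusted p = 0.747), Nop56 at -0.14 (adjusted p = 0.592) and eIF6 at -0.05 (adjusted p = 0.912). Of the 69 other assembly genes and the 33 ribosomal protein genes 0 passed by limma, with 7 and 1 at an unadjusted p under 0.05.

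The interaction asked whether the diet effect differed between the stages, which is also whether the stage change differed between the foods. It passed for 0 of 25 members by limma, against a background of 7.76% of genes (3.79% higher, 3.97% lower), and 2 members, Fib and Nph, had an unadjusted p under 0.05. The largest difference was that of Fib, 0.60 (SE 0.23, adjusted p = 0.147), from a diet change of -0.40 in mid-L3 to 0.20 in wandering larvae. Nph followed with 0.45 (SE 0.19, adjusted p = 0.174), from -0.45 to 0.00. Polr1A (0.40), Ns1 (0.34), Surf6 (0.40) and Non1 (-0.25) had adjusted p of 0.29 to 0.328. Without mid-L3 control array 2 the members' median difference was 0.04, against 0.16 with it, that of Fib was 0.39 (adjusted p = 0.252) and that of Nph 0.26 (adjusted p = 0.27). Polr1A, Ns1 and Surf6 were then at 0.24, 0.17 and 0.20, and Non1 at -0.28 (adjusted p 0.345 to 0.58). At this precision no difference in the diet response of these genes between the stages was detectable.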

How the data were processed

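The deposited values were 1 linear intensity per probe set and array, made by the authors with software and normalization not given in the sources used here; RNA came from whole larvae, per the labels. Of 18952 probe sets 183 were controls and were left out, and 13647 had 1 gene in the platform's gene table, updated to current symbols. To the deposited intensities 12.7, the 20th percentile over all arrays, was added, and log2 values were quantile normalized over the 12 arrays. The brightest probe set stood for a gene, and the dimmest genes, below the 30th percentile by mean level, were dropped (8387 remained). Polr1C was listed under 2 names and counted once.

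A mean per group was fitted to 12 arrays with limma 3.58.1 in R 4.3.3 (eBayes with an intensity trend, residual df 8, prior df 4.41), with Benjamini-Hochberg adjustment over all genes of a comparison, at 0.05. The fit was tested on simulated data. Plots used Python 3.11.15 and matplotlib 3.10.9. The members, gene lists and tests were chosen with earlier results of these data known. Every member could be named; values of each array were given for the 6 members with the smallest adjusted p of a comparison and for Fib, Polr1A, Tif-IA, Nop56 and eIF6, and from other lists up to 2 passing genes per direction. Control arrays with the same number at both stages had correlations, of deviations from group means, of 0.178, 0.143 and 0.122. They were therefore treated as paired in an alternative fit. Wandering control array 3 and wandering high sugar array 2, with different numbers, reached 0.389, so such values do not establish a shared batch. The labels do not say what a number stands for, and in the other comparisons at least 1 pair of numbers was not above 0.1. The p-values weigh a difference of group means against the spread among arrays within groups, pooled over the 4 groups and moderated across genes by limma. Ns1 and pit were read by probe sets whose suffix marks sequence shared between transcripts, so related transcripts may contribute.

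Alternatives were the deposited values without scaling, arrays centred on medians, a constant of 1 or one 5 times larger, filtering of no genes or at the 50th percentile, averaging over probe sets, a replicate block, no intensity trend, array weights, the compared groups alone and each array left out. Leaving out both control arrays numbered 1 and fitting the probe sets of Nop60B singly were added after the data were seen.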

Additional observations from a re-analysis of the deposited data

How the results depend on the processing

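Of 125 member results (25 genes in 5 comparisons), 2445 values under alternatives were computed: 2225 kept their direction and side of the threshold, 84 changed sign without passing in either fit, 86 lost a call, 47 gained one and 3 reversed. The reversals came with arrays centred on their medians: Nph and Non1 between the stages on control food (-0.0376 and -0.0596) and Non1 on high sugar food (-0.26). Leaving out 1 array at a time gave 17 to 18 members passing between the stages with control food, 15 to 20 with high sugar, 0 to 5 for diet in mid-L3 larvae, and 0 to 0 for diet in wandering larvae and for the interaction. Of 8387 genes, 6388 to 6453 passed between the stages with control food and 6294 to 6669 with high sugar. For diet 713 to 1010 passed in mid-L3 and 278 to 1428 in wandering larvae, and 431 to 1279 for the interaction. In the values as deposited 12 and 10 members passed between the stages and 4 for diet in mid-L3 larvae, where centred arrays gave 7, no filter 1, no intensity trend 0 and the 6 compared arrays alone 1. For diet in mid-L3 larvae these fits passed 1213, 1269, 1183, 1166 and 1787 of all genes, in the same order. With a replicate block the mid-L3 diet count was 1 over all 12 arrays and 1 over the 6 compared arrays, against 1046 and 1226 of all genes. Nph and Non1 were lost and pit was added over 12 arrays, and Nph was lost over 6 with or without the block. On high sugar food the stage call of Polr1A was lost with the block over 12 arrays (adjusted p = 0.0614) and that of Nop60B over the 6 arrays with or without it. Array weights gave 4 members for diet in wandering larvae (Nnp-1, Polr1B, pit and wcd, all lower) and 2 for the interaction (Fib and Non1), against 28.4% and 26.3% of all genes in that fit. Leaving out both control arrays numbered 1, chosen after the data were seen, gave 4 for diet in mid-L3 larvae and 1 for the interaction (Fib, 0.86, adjusted p = 0.0425), against 816 and 452 of all genes. The cause of these differences was not tested. The 3 arrays a group limit the precision, and no detection calls were used.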
